A study of Mus musculus with 2 samples.

Results

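The miRPlus probes are oligonucleotides that the maker of the array added for candidate miRNAs outside the public miRNA registry. They were taken as all probes with the status mirplus in the authors' deposited fold-change table, whatever their brightness, and number 77 of the 2101 probes in that table. Their names carry a probe number and no miRNA, gene or species, as in miRPlus_11201. None of the 77 names is in the RefSeq miRNA table used here, which holds 1738 mature entries, so no sequence, seed or position is given for them. The RNA came from the mouse line G2N2C, which derives from basal cell carcinoma (BCC) and was kept at low calcium, with keratinocyte growth factor and 8% serum from which calcium had been chelated. One pool came from cells transfected with Stealth-D3 oligonucleotides against the type 3 deiodinase (D3, the product of Dio3), the other from cells transfected with Stealth-ctr control oligonucleotides. Both were collected after 48 h, and each pool joined the RNA of 3 experiments.

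MicroRNAs are short RNAs that pair with messenger RNAs, mainly through a seed near their 5′ end, and lower their translation or stability. The probes of the arrays used here carry locked nucleic acid, a modified sugar that makes a short probe bind more tightly. D3 inactivates thyroid hormone, and in skin it is known as a target of Hedgehog signalling, the pathway that drives BCC. A miRPlus probe reports hybridised signal for its design sequence, and the deposited files do not say which RNA gave it.

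The same 2 pools were hybridised to both of 2 two-colour arrays. Cy3 marked the D3 pool and Cy5 the control pool on array 1, and the dyes were exchanged on array 2. There is thus 1 replicate per condition, and no p-value was computed. Every SD below is technical, over both arrays, and precision is limited by how few arrays there are. With the dyes exchanged, this SD holds a probe's offset between the dyes, so it is not the error of the difference between the pools. How far Dio3 itself was lowered was not analysed here. The keratinocyte miRNA miR-205 was bright, with an average log2 intensity of 11.9. The keratinocyte miRNA miR-203, with 7.16, was close to the liver miRNA miR-122, with 6.85.

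All ratios were read as being on the log2 scale. Those of array 1 were given the opposite sign. A difference between the pools then gives the same sign on both turned arrays, and a difference between the dyes gives opposite signs. Positive is the side of miR-21, which had 3.08 on array 1 and 4.12 on array 2. Which dye stands in the numerator of the ratios is not stated in the labels or the files. With Cy5 over Cy3, positive means more signal in the D3 pool, and with Cy3 over Cy5 more in the control pool. Sides are therefore given without a direction.

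Most miRPlus probes were dim. Their average log2 intensity, the authors' value over both arrays, ran from 6.49 to 11.5 with a median of 6.88 and quartiles of 6.72 and 7.32. The median was 6.86 over all 2101 probes, 7.08 over the 424 probes for mouse miRNAs and 6.83 over the 1586 probes for miRNAs of other species. The miRPlus probes were thus about as dim as the array as a whole. No probe without a fold change in the authors' deposited table was brighter than 6.99, and 30 miRPlus probes (39.0%) lay above this value, against 38.6% of all probes. An intensity of 8 or more was reached by 16 miRPlus probes (20.8%), against 15.8% of all probes and 106 of the 424 mouse miRNA probes. An intensity of 9 or more was reached by 9 miRPlus probes (11.7%), against 8.52% of all probes. These differences were not tested.

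The brightest was miRPlus_17890 with 11.5, at rank 33 of the 2101 probes, followed by miRPlus_21472 with 11.1 at rank 43. Next came miRPlus_17952 with 10.7, miRPlus_27564 with 10.6, miRPlus_27561 with 10.1 and miRPlus_17869 with 10. The 10 brightest were completed by miRPlus_17861 with 9.67, miRPlus_28431 with 9.24, miRPlus_17865 with 9.11 and miRPlus_17832 with 8.83. All 10 lay above percentile 90 of the array. The other 6 at 8 or more were miRPlus_17921 with 8.81, miRPlus_28575 with 8.66, miRPlus_17896 with 8.34, miRPlus_11201 and miRPlus_17900 with 8.27 each, and miRPlus_27560 with 8.16. Intensities of different probes depend on each probe's affinity and were not compared as RNA levels.

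The dye-swapped arrays gave the same sign for 28 of the 77 miRPlus probes (36.4%), against 42.3% of all probes. The other 49 had opposite signs after turning, so their dye part was larger than their pool part. The dye part, the mean of both arrays before turning, rose with brightness across the 77 probes (r = 0.74, as a description; the probes share both arrays). It was positive in all 16 miRPlus probes at 8 or more, with a median of 0.50, and in 98.5% of all probes of that brightness, with a median of 0.45. The 61 miRPlus probes under 8 had a median dye part of 0.01. The share of miRPlus probes with a positive dye part at 8 or more was therefore close to that of the array.

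miRPlus_17890, the brightest, showed the dye most clearly. It had -1.93 on array 1 and 1.57 on array 2 after turning, that is 1.93 and 1.57 in one dye order, with a dye part of 1.75 and a pool part of -0.18 ± 2.47. miRPlus_17952 behaved alike, with -0.57 and 1.87, a dye part of 1.22 and a pool part of 0.65 ± 1.73. miRPlus_27564 had -0.50 and 1.19, with a pool part of 0.34 ± 1.20. In each of the 3 probes the arrays disagreed in sign, which by itself makes the SD larger than the size of the mean. The SD after ± is a fixed multiple of the size of the dye part, so it adds nothing further here.

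A smooth trend of each array on brightness, fitted over all 2101 probes, was therefore also removed. Then 34 of 77 miRPlus probes (44.2%) had the same sign on both arrays, against 47.4% of all probes. The gain lay in the bright probes: 13 of the 16 at 8 or more then had the same sign, against 7 as deposited. Over all probes of that brightness the shares were 70.7% and 37.2%. The arrays then gave -0.81 and 0.02 for miRPlus_17890, 0.29 and 0.64 for miRPlus_17952, and 0.33 and -0.01 for miRPlus_27564. The technical SD narrowed in 15 of the 16, and in 287 of all 331 probes of that brightness. Its median fell from 0.71 to 0.22 in the 16. In a dye swap this SD is a fixed multiple of the dye part, which removing the trend lowers by design. The narrowing and the gain in equal signs thus mainly show a smaller dye part, not closer agreement on the pools. Across these 16 probes the turned arrays correlated with r = 0.40 as deposited and 0.86 with the trend removed. Over all 331 probes of that brightness r was 0.11 and 0.59. These values are given as a description, since the points share both arrays and the fitted trend. Of the 61 dimmer miRPlus probes 21 (34.4%) had equal signs on the arrays as deposited and 21 with the trend removed, 18 of them in both. Over all probes under 8 the shares were 43.3% and 43.0%. Across the 61 probes r was -0.28 and -0.30, against -0.04 and -0.01 over all probes under 8.

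The rule of size asked for equal signs on the turned arrays and a mean of at least 1.5-fold, or 0.585. As deposited, 5 of the 77 miRPlus probes passed, 3 on the side of miR-21 and 2 opposite. The rule was passed by 5.76% of all probes, 3.24% on the side of miR-21 and 2.52% opposite, so the miRPlus count is near that of the array. In pooled RNA of whole cultures, fewer cells with an RNA and less of it per cell cannot be told apart. With the trend removed 5 also passed, 2 on the side of miR-21 and 3 opposite, against 6.62% of all probes (3.24% and 3.38%). All 5 were at 8 or more in both sets of values, which is 31.25% of the 16 miRPlus probes of that brightness. Of all 331 probes of that brightness 22.1% passed as deposited and 28.1% with the trend removed. These differences were not tested. As a technical comparison, 7 miRPlus probes passed as deposited with the sign of array 2 exchanged, against 7.76% of all probes. With the trend removed 2 did so, against 3.66% of all probes, and neither was at 8 or more. As deposited the count of 5 was thus below the count that followed the dye.

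On the side of miR-21, miRPlus_11201 lay highest. It had 1.13 on array 1 and 1.504 on array 2, with a mean of 1.32 ± 0.26, a 2.49-fold difference between the pools. The arrays gave 1.37 and 1.17 with the trend removed, with a mean of 1.27 ± 0.14. Both arrays favoured the same pool in both sets of values, and by size of the mean the probe was at rank 17 of 2101 as deposited and 25 with the trend removed. The authors' deposited table gives it a log2 fold change of 0.81, or 1.75-fold.

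miRPlus_17900 had 0.80 on array 1 and 1.37 on array 2, with a mean of 1.09 ± 0.40, or 2.13-fold. Its arrays nearly coincided with the trend removed, at 1.05 and 1.04. The authors' deposited table gives 0.65, or 1.57-fold. miRPlus_11201 and miRPlus_17900 were the only miRPlus probes that reached a mean of 2-fold with the same sign on both arrays as deposited. No share over all probes is given at this limit, so the count is not compared with the array. Neither probe reached 2-fold in the authors' deposited table.

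miRPlus_17869 passed as deposited only. It had 0.06 on array 1 and 1.43 on array 2, so that its mean of 0.74 ± 0.97 came mainly from 1 array. The arrays lay closer with the trend removed, at 0.67 and 0.48, and the mean of 0.578 fell just short of the limit of 0.585. The authors' deposited table gives 0.28. Just outside the limit as deposited was miRPlus_17896, with 0.05 and 1.12 on the arrays and a mean of 0.584, which was 0.54 ± 0.33 with the trend removed.

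Opposite miR-21, miRPlus_28431 had -1.14 on array 1 and -0.48 on array 2, with a mean of -0.81 ± 0.47, a 1.75-fold difference. It was -0.70 and -1.12 with the trend removed, with a mean of -0.91 ± 0.29, and the authors' deposited table gives -0.91. Here too both arrays favoured the same pool in both sets of values. miRPlus_27561 had -1.23 and -0.21, with a mean of -0.72 ± 0.72, the nearest to the limit from inside on this side. It had -0.58 and -1.20 with the trend removed, with a mean of -0.89 ± 0.44, and the authors' deposited table gives -0.88. The nearest outside among probes of equal signs was miRPlus_30209, a dim probe of 6.72, with -0.77 and -0.17 and a mean of -0.47.

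miRPlus_21472 had the lowest mean of the 77 and did not pass as deposited. Its arrays were -2.63 and 0.10, with a mean of -1.27 ± 1.93 and a dye part of 1.37. At its brightness the fitted trend was 0.999 on array 1 and 1.39 on array 2, in one dye order. With the trend removed the arrays were -1.64 and -1.30, with a mean of -1.47 ± 0.24, a 2.76-fold difference at rank 17 of 2101. The authors' deposited table gives -0.96, or a signed fold change of -1.95, the lowest of the miRPlus probes there too. Whether the probe passed thus depended on the trend, while the mean kept its sign.

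A fold change is given in the authors' deposited table for 59 of the 77 miRPlus probes (76.6%), against 79.8% of all probes. It ran from -0.96 to 0.81 in log2, with a median of -0.02, against -0.03 over all 1677 probes with a value. A size of 1.5-fold was reached by 5 of the 59, against 6.62% of all probes with a fold change: miRPlus_11201 and miRPlus_17900 on the side of miR-21, and miRPlus_21472, miRPlus_28431 and miRPlus_27561 opposite. These are the 5 that passed the rule with the trend removed, and 4 of them also passed as deposited; all 3 sets of values derive from the same arrays. The mean ratio as deposited had the sign of the authors' fold change in 36 of the 59 (61.0%), against 69.4% of all probes with a fold change. It did so in all 14 whose authors' log2 fold change was 0.2 or more in size, against 92.9% of all such probes. An unadjusted p-value under 0.05 is given in the authors' deposited table for 9 of the 59, against 13.5% of all probes with a value. The table does not say which replicates it rests on, so no result is drawn from it, and the probes are only listed. Beyond the 5 named these are miRPlus_17861, miRPlus_17832, miRPlus_17828 and miRPlus_17869, with authors' log2 fold changes of -0.45, -0.46, 0.21 and 0.28.

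Among the 10 brightest, miRPlus_17861 had -0.91 on array 1 and 0.69 on array 2, and -0.39 and -0.11 with the trend removed. miRPlus_17832 had -0.75 and 0.18, and -0.40 and -0.31 with the trend removed. Both changed from opposite to equal signs and stayed under the limit, with means of -0.25 and -0.35. miRPlus_17865 had -0.28 and 0.71, and 0.13 on both arrays with the trend removed. The remaining bright probes had means near 0 with the trend removed: 0.16 for miRPlus_27560, 0.15 for miRPlus_17921 and 0.12 for miRPlus_28575.

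The 61 miRPlus probes under 8 held no probe past the rule, as deposited or with the trend removed, where 2.71% and 2.60% of all probes of that brightness passed. The 14 between 7 and 8 had means from -0.16 to 0.52, and 3 of them (21.4%) had the same sign on both arrays, against 48.4% of all probes of that brightness. The 47 under 7 had means from -1.003 to 0.57, and 18 (38.3%) had the same sign, against 41.3% of all probes under 7. The lowest of these came from 1 array: miRPlus_28534, with a brightness of 6.99 and no fold change in the authors' deposited table, had -2.15 on array 1 and 0.14 on array 2. Without it the lowest mean of a probe under 8 was that of miRPlus_30209. The highest were miRPlus_27869, with 0.26 and 0.88, and miRPlus_17956, with 0.57 and 0.47, both named after their values were seen.

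The 18 miRPlus probes without a fold change had intensities from 6.49 to 6.99. Their ratios ran from -2.15 to 0.95 on array 1 and from -0.22 to 0.26 on array 2, and the median of their means was 0.004. Values near 0 in dim probes do not show equal levels, since their signal is close to that of probes for which the authors gave no fold change. Over all 77 miRPlus probes the median of the mean ratio was 0.05, with -0.05 on array 1 and 0.06 on array 2, against 0.03 over all probes. With the trend removed it was 0.02, against -0.0003 over all probes. Means were positive for 46 miRPlus probes and negative for 31, against 1143 and 958 over all probes.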

How the data were processed

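Total RNA was extracted with Trizol, purified on a column and labelled with Cy3 or Cy5 for arrays of locked nucleic acid probes, per the labels. The value table the authors deposited holds 1 processed ratio per array for 2244 features. No label or header states its base, centring or dye order. The medians over all features were 0.039 on array 1 and 0.040 on array 2. It was read as log2. The slope of the authors' log2 fold change on the mean turned ratio was 0.78 over 155 probes of intensity 9 to 12 (r = 0.98). Over 1677 probes r was 0.83, and over 59 miRPlus probes 0.87, but a correlation does not depend on the base. The slope is short of 1, so the base is not settled, and the fold sizes given here rest on this reading. The fold-change table the authors deposited gives, per the file headers, log2 fold change, average log2 intensity, p-value and a signed fold change, here read as a score. For the tool, the background correction and the normalization, no header or label names a method.

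Tables were joined by probe number. Array 1 was turned, and both arrays were averaged. A lowess trend on average intensity (span 0.3) was removed as an alternative; the functions were tested on simulated data. Named are probes past the rule, the 10 brightest, the 5 highest, 5 lowest and 5 most discordant, and those nearest to the limit. Members, lists and rules were chosen with earlier results of these data known. Python 3.11.15, NumPy 2.4.6, pandas 2.3.3, SciPy 1.17.1 and statsmodels 0.14.6 were used.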

Additional observations from a re-analysis of the deposited data

How the results depend on the processing

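The count of 5 miRPlus probes past the rule was also 5 with the trend removed at a span of 0.3 or 0.5, with median-centred arrays, over probes brighter than 6.99, in the authors' deposited table and, as added after seeing the data, over probes with a fold change. It was 10 at a lower limit of 0.32 on the log2 scale, 2 at 2-fold and 8 without the demand on signs. On a single array it was 15 on array 1 (6 positive) and 12 on array 2 (11 positive). For these other limits, without the demand on signs and on single arrays, no share over all probes is given. The same holds at span 0.5, with median-centred arrays, over probes brighter than 6.99 and over probes with a fold change. Those counts therefore show only how the setting moved the count and are not compared with the array. With the sign of array 2 exchanged it was 7 as deposited and, added after seeing the data, 2 with the trend removed. The median ratio was 0.17 over probes brighter than 6.99, -0.045 on array 1 and -0.02 in the authors' deposited table. The share with equal signs stayed between 33.3% and 44.2%. The count of bright probes was 30 at the main limit, 16 at 8 and 9 at 9. miRPlus_21472, past the rule with the trend removed only, had -2.63 on array 1 and 0.10 on array 2 as deposited. The 5 past the rule as deposited kept their sign with the trend removed, with median-centred arrays and in the authors' deposited table. Equal signs on the single arrays are part of the rule. Among named probes with a fold change, 2 moved by more than their technical SD in the authors' deposited table and 11 did not. These 2 were miRPlus_11201, with 0.81 against 1.32 ± 0.26, and miRPlus_17900, with 0.65 against 1.09 ± 0.40. No paired analysis was possible because the result comes from no test and the arrays share their RNA. With 1 pool per condition, the interference and any other difference between the pools cannot be told apart, and dim signal limits what 61 of the 77 probes can show.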

Other observations

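Probe numbers fall in runs, a grouping made after the values were seen. Of the 77 miRPlus probes, 49 are numbered from 17811 to 17957, and 9 of these reached an intensity of 8, against 7 of the 28 with other numbers. The rule of size was passed by 2 of the 49 and 3 of the 28 as deposited, against 5.76% of all probes, and by 1 of the 49 and 4 of the 28 with the trend removed, against 6.62%. The difference was not tested. Among 3 probes of close number, picked after their values were seen, miRPlus_27561 had -0.89 with the trend removed and miRPlus_27560 and miRPlus_27564 had 0.16 each.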
